A study of Mus musculus with 24 samples.

Results

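Glycolysis splits glucose into pyruvate in the cytosol, and in the brain it supplies both neurons and glia, with lactate exchanged between them. Neurons take up glucose mainly through the transporter encoded by Slc2a3 (GLUT3), whereas Slc2a1 (GLUT1) serves the blood-brain barrier and astrocytes. Lactate dehydrogenase exists in a muscle-type subunit, encoded by Ldha, and a heart-type subunit, encoded by Ldhb, and the enzyme interconverts pyruvate and lactate. The genes described here are Slc2a3, the hexokinase gene Hk1, the phosphofructokinase gene Pfkp, the aldolase gene Aldoa, the glyceraldehyde-3-phosphate dehydrogenase gene Gapdh, the phosphoglycerate kinase gene Pgk1, the neuron-enriched enolase gene Eno2, the pyruvate kinase gene Pkm, and both lactate dehydrogenase genes. They were chosen by symbol from a list written for this purpose, and 11 of the 55471 genes counted mapped to these 10 symbols. The extra row was a second, low Aldoa gene model, which is described separately. All 11 rows were among the 18992 genes that passed the expression filter, and the 10 genes had between 873 and 63857 counts per library.

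Hypothalamic RNA was sequenced from chow-fed male C57BL6/J mice aged 18 weeks, with 1 library per mouse. ExpOF mice received a sucrose-supplemented liquid diet through a gastric catheter, at rates raised stepwise above their baseline energy need, and control mice received sterile water at the same rates. Mice were killed on day 14 of infusion (d14), or 3 days after overfeeding ended and all mice received water (d14+3), in 4 groups of 6. The study left out 1 Control d14 mouse for poor RNA quality, and the values below are over 23 libraries (Control d14, n = 5, other groups, n = 6) unless all 24 are named. The study does not name that library. It was inferred to be Control d14 replicate 4 by matching mean expression values, although the label of replicate 4 gives an RNA integrity number (RIN) of 9.8.

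Each library held between 8928182 and 34848437 counts, and RIN ranged from 7.2 to 10.0. RIN differed between the groups, from 8.0 to 10.0 (median 9.6) in Control d14 and from 9.6 to 10.0 (9.7) in ExpOF d14. It ran from 7.2 to 9.9 (8.6) in Control d14+3 and from 8.8 to 10.0 (9.55) in ExpOF d14+3. Values below 8.8 thus occurred only in control mice, and the part of RIN was not tested beyond a fit with it as a covariate. Each group combined 3 mice of a July cohort with 3 of a September cohort, and Control d14 replicate 4 belonged to September. All 9 hypothalamic markers listed passed the filter, and cortical and hippocampal markers summed to at most 13.45 CPM. Sums of 4 thalamic markers were not low and ran from 319.3 CPM in Control d14 to 913.2 CPM in Control d14+3. Hypothalamic sums ran from 428.5 CPM in ExpOF d14+3 to 1141.8 CPM in Control d14. Summed levels of 7 neuronal markers were 3434.1 to 3814.2 CPM in Control d14 and 3518.7 to 3955.5 CPM in ExpOF d14. They were 3946.1 to 4182.7 CPM in Control d14+3 and 3731.3 to 4232.2 CPM in ExpOF d14+3. Markers of neighbouring structures varied, and 4 choroid plexus markers together reached 3022.8 CPM in Control d14 replicate 5 and 1288.1 CPM in ExpOF d14+3 replicate 4, against at most 60.09 CPM in the other libraries. The 1 detectable pituitary marker reached 94.76 CPM in Control d14 replicate 1 and at most 20.46 CPM elsewhere. In whole tissue, fewer cells of a type and less RNA per cell cannot be told apart, and counts per gene cannot separate the splice forms of Pkm.

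Upstream windows of 4 genes are shown because results below turn on these genes: Ldha and Ldhb encode alternative subunits, Pgk1 had the lowest fold change on d14, and Hk1 was among the genes of small spread. Each window is the 250 bases before a RefSeq transcription start (GRCm38.p6), read 5′ to 3′ on the gene's strand, and none overlaps an annotated exon. Capitals mark ACGTG or GCGTG on either strand, the core of the hypoxia response element, and a palindromic CACGTG counts once on each strand. The Ldha window lies at chr7:46845554-46845803 on the plus strand, the Ldhb window at chr6:142507958-142508207 on the minus strand, the Pgk1 window at chrX:106186850-106187099 on the plus strand and the Hk1 window at chr10:62379909-62380158 on the minus strand.
Ldha: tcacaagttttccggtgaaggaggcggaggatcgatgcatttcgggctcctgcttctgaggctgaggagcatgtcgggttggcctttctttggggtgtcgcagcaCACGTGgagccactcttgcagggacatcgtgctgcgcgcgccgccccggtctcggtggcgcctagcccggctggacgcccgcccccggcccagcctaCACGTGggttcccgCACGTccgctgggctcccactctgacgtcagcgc
Ldhb: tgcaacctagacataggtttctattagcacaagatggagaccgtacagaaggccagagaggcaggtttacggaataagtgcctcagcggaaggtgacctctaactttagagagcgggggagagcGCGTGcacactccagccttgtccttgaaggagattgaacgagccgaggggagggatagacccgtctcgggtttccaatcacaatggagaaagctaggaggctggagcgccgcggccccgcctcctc
Pgk1: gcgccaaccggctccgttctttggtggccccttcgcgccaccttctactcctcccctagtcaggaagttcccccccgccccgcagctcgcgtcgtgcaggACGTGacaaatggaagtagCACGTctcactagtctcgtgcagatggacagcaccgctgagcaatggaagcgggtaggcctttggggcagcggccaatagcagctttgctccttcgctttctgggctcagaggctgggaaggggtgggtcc
Hk1: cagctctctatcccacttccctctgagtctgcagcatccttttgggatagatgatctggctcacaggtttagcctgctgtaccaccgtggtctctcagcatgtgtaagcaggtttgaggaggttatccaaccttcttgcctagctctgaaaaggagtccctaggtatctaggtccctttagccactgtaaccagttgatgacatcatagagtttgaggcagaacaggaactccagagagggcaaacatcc
The Ldha window held 5 matches, the Pgk1 window 2, the Ldhb window 1 and this Hk1 window 0. These counts depend on the start chosen, since a second Hk1 window, which overlaps an annotated exon, held 3 matches and a second Ldha window held 1. Of the 9 genes with a window, 8 held at least 1 match in some window, and 10 of 14 windows did. The share was 51.9% among all windows of the genes tested and 38.6% among all RefSeq windows. A match is a description of the letters, not a site of binding. Slc2a3 had no entry.

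Levels between genes are compared per length, as CPM per kilobase of the deposited gene length over the 23 libraries. Aldoa was highest at 567.5 ± 83.2 (SD, n = 23), above Pkm in 23 of 23 libraries. Pkm followed at 267.2 ± 34.6, then Ldhb at 250.6 ± 44.0, Gapdh at 236.2 ± 34.2 and Eno2 at 217.2 ± 15.8 CPM per kilobase. The means of these 4 genes lay within the spread of their neighbours, although Pkm was above Ldhb in 20, Ldhb above Gapdh in 20 and Gapdh above Eno2 in 18 of 23 libraries. A lower tier held Ldha at 66.6 ± 7.50, Pgk1 at 52.9 ± 7.70 and Hk1 at 46.6 ± 2.72 CPM per kilobase, and Ldha exceeded Pgk1 in 23 and Pgk1 exceeded Hk1 in 21 libraries. Pfkp at 21.3 ± 0.862 and Slc2a3 at 18.1 ± 0.923 were lowest. Among the 10 genes, Hk1 and Pfkp were thus the lowest of the enzymes per kilobase and the transporter was below them. Other enzyme genes before the aldolase step were higher per kilobase, with Gpi1 at 119.3 ± 10.3 and Pfkm at 158.0 ± 12.2. This order depends on the division by gene length. In CPM, the means of Hk1 (397.9) and Pfkp (285.1) were above those of Ldha (220.5) and Pgk1 (118.6), and Slc2a3 (131.1) was above Pgk1.

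On d14, the question was whether hypothalamic glycolysis transcripts differed after overfeeding. The genes were lower in ExpOF mice by a median of -0.21 on the log2 scale, against -0.02 over all 18992 genes, with 8 of 10 lower where 53.4% of all genes were. None of the 10 passed an adjusted p-value of 0.05 (edgeR quasi-likelihood test, Benjamini-Hochberg), where 0.00527% of all genes did. At an unadjusted p-value under 0.05, 6 of 10 genes passed, where 26.7% of all genes did: Slc2a3 was higher (13.1% of all genes passed in this direction) and Aldoa, Gapdh, Pgk1, Pkm and Ldha were lower (13.6%). In exact permutation tests, Slc2a3 (p = 0.00433), Pkm (0.0238), Hk1 (0.0411) and Aldoa (0.0455) were under 0.05. Pgk1 (0.0671), Gapdh (0.0714), Ldha (0.0779), Ldhb (0.108), Eno2 (0.139) and Pfkp (0.446) were not. The share of all genes was not computed for the permutation test. Markers were compared on d14 at an unadjusted p-value under 0.05, where 26.7% of all genes passed. Of hypothalamic markers, 4 of 9 were lower and 1 higher (median of the summed level, 762.6 CPM in control and 655.0 CPM in ExpOF mice). This list includes the neuropeptide genes Pomc, Agrp, Avp, Oxt, Hcrt and Pmch, and the study reports lower Agrp on d14. The hypothalamic sum therefore need not reflect the dissection alone. Thalamic markers were lower for 1 of 4 (505.3 and 379.8 CPM) and oligodendrocyte markers for 2 of 6 (6407.4 and 6050.5 CPM). Astrocyte markers were higher for 2 of 6 (2314.4 and 2627.8 CPM). Choroid plexus markers were lower for 3 of 4, the pituitary marker for 1 of 1, and endothelial and leptomeningeal markers for 1 of 5 each. Cortical and hippocampal markers were higher for 2 of 3 and neuronal markers for 1 of 7. Of microglial markers 2 of 6 passed, 1 of them lower, and of blood markers 0 of 5. The part of any of these in the result was not tested. DESeq2 gave an adjusted p-value under 0.05 for 1 of the 10 (Slc2a3), where 1.03% of all genes passed. With RIN as a covariate in edgeR, the median over the 10 genes was -0.23. In that fit 7 of 10 had an unadjusted p-value under 0.05, where 32.1% of all genes did. None of the 10 passed the adjusted threshold there, where 1 of all 18992 genes did.

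Slc2a3 (ENSMUSG00000003153, mm10 chr6:122727809-122801640) was the only one of the 10 genes whose groups did not overlap on d14. The Control d14 values were 129.1, 120.5, 125.1, 124.2 and 119.1 CPM for replicates 1, 2, 3, 5 and 6, and ExpOF d14 ranged from 130.3 to 140.6 CPM with a median of 139.1. All 6 ExpOF libraries were above every control, as 1.54% of genes tested were. The log2 fold change was 0.15 (SE 0.045), with an adjusted p-value of 0.135 (edgeR) and an exact permutation p-value of 0.00433. The adjusted p-value in DESeq2 was 0.0368, and over 36 alternatives, DESeq2 included, it ranged from 0.0235 to 0.872. With the trend of fold change with gene length removed, the log2 fold change was 0.062 (adjusted p = 0.383). On d14+3 the ranges were 127.7 to 138.5 CPM in ExpOF and 123.0 to 138.4 CPM in control mice, and they overlapped.

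Among the enzyme genes at the head of the pathway, Hk1 and Pfkp varied little. Other genes of these steps had log2 fold changes on d14 of -0.19 (Pfkl), -0.15 (Gpi1), -0.08 (Pfkm) and -0.08 (Hk2). The small spread of Hk1 and Pfkp therefore does not describe these steps as a whole. Hk1 (ENSMUSG00000037012, mm10 chr10:62268855-62379908), which traps glucose as glucose-6-phosphate, ranged from 378.2 to 425.8 CPM in Control d14 and from 377.5 to 391.0 CPM in ExpOF d14. Its log2 fold change was -0.07 (SE 0.054, adjusted p = 0.408), with an exact permutation p-value of 0.0411, and the groups overlapped. Pfkp (ENSMUSG00000021196, mm10 chr13:6579768-6648777), the platelet-type phosphofructokinase, ranged from 270.7 to 298.8 CPM in control and from 273.7 to 295.1 CPM in ExpOF mice on d14, with a log2 fold change of 0.03 (SE 0.044, adjusted p = 0.719). The fold change of Pfkp was -0.18 with the length trend removed and -0.14 with length and GC trends removed, which turned its direction. Of the exon bases of Pfkp, 5.58% overlap Pitrm1 on the opposite strand, and whether reads were counted by strand is not given in the sources used here.

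From aldolase to lactate dehydrogenase, every gene had a lower mean in ExpOF d14 than in Control d14, with overlapping groups. Aldoa (ENSMUSG00000030695, mm10 chr7:126795234-126800751) measured 1377.7, 1944.9, 1622.4, 2073.4 and 1834.3 CPM in Control d14 replicates 1, 2, 3, 5 and 6. ExpOF d14 ranged from 1404.4 to 1580.7 CPM with a median of 1480.7, so that the ExpOF libraries sat above replicate 1 and below the other controls. The log2 fold change was -0.25 (SE 0.108, adjusted p = 0.153), a level 16.0% lower. The second Aldoa row (ENSMUSG00000114515, mm10 chr7:126800790-126809108) had 1.23 CPM in ExpOF d14 and 1.47 CPM in Control d14, and it did not pass the test (adjusted p = 0.559).

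Gapdh (ENSMUSG00000057666, mm10 chr6:125161715-125166467), whose product makes NADH, measured 809.3, 1121.0, 922.5, 1136.0 and 1092.2 CPM in Control d14 replicates 1, 2, 3, 5 and 6 and from 826.0 to 937.1 CPM in ExpOF d14. The log2 fold change was -0.22 (SE 0.105, adjusted p = 0.178). Pgk1 (ENSMUSG00000062070, mm10 chrX:106187100-106203699), which makes ATP, measured 97.7, 130.5, 115.3, 162.1 and 129.6 CPM in the same controls and from 98.4 to 117.1 CPM in ExpOF d14. Its log2 fold change was -0.26 (SE 0.105, adjusted p = 0.146). Of the 6 ExpOF libraries, 4 for Gapdh and 5 for Pgk1 lay below the other 4 controls, while replicate 1 lay below every ExpOF library for both genes.

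Eno2 (ENSMUSG00000004267, mm10 chr6:124760053-124769621) measured 916.7, 1110.0, 1019.0, 1129.7 and 1041.3 CPM in Control d14 replicates 1, 2, 3, 5 and 6 and from 957.2 to 1004.9 CPM in ExpOF d14. Its log2 fold change was -0.09 (SE 0.063, adjusted p = 0.365). Pkm (ENSMUSG00000032294, mm10 chr9:59656368-59679375), the last ATP-making step, measured 1190.4, 1545.6, 1282.7, 1655.5 and 1452.3 CPM in the controls and from 1169.4 to 1265.7 CPM in ExpOF d14, a log2 fold change of -0.23 (SE 0.096, adjusted p = 0.152). All 6 ExpOF libraries were below the control median for both genes. Of the exon bases of Pkm, 15.34% are shared with Gm49759 on the same strand.

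Of the lactate dehydrogenase genes, Ldha (ENSMUSG00000063229, mm10 chr7:46841475-46855627) measured 198.9, 279.9, 221.7, 269.2 and 249.4 CPM in Control d14 replicates 1, 2, 3, 5 and 6 and from 190.1 to 233.9 CPM in ExpOF d14, a log2 fold change of -0.20 (SE 0.085, adjusted p = 0.152). Ldhb (ENSMUSG00000030246, mm10 chr6:142490249-142507957) measured 296.7, 463.8, 357.7, 492.5 and 424.1 CPM in the controls and from 325.2 to 378.9 CPM in ExpOF d14, a log2 fold change of -0.25 (SE 0.127, adjusted p = 0.202). The groups overlapped for both genes. In the July cohort the median over the 10 genes was -0.23 and in the September cohort -0.15, with 4 and 0 genes at an unadjusted p-value under 0.05 (18.7% and 4.40% of all genes).

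**Figure D1:**
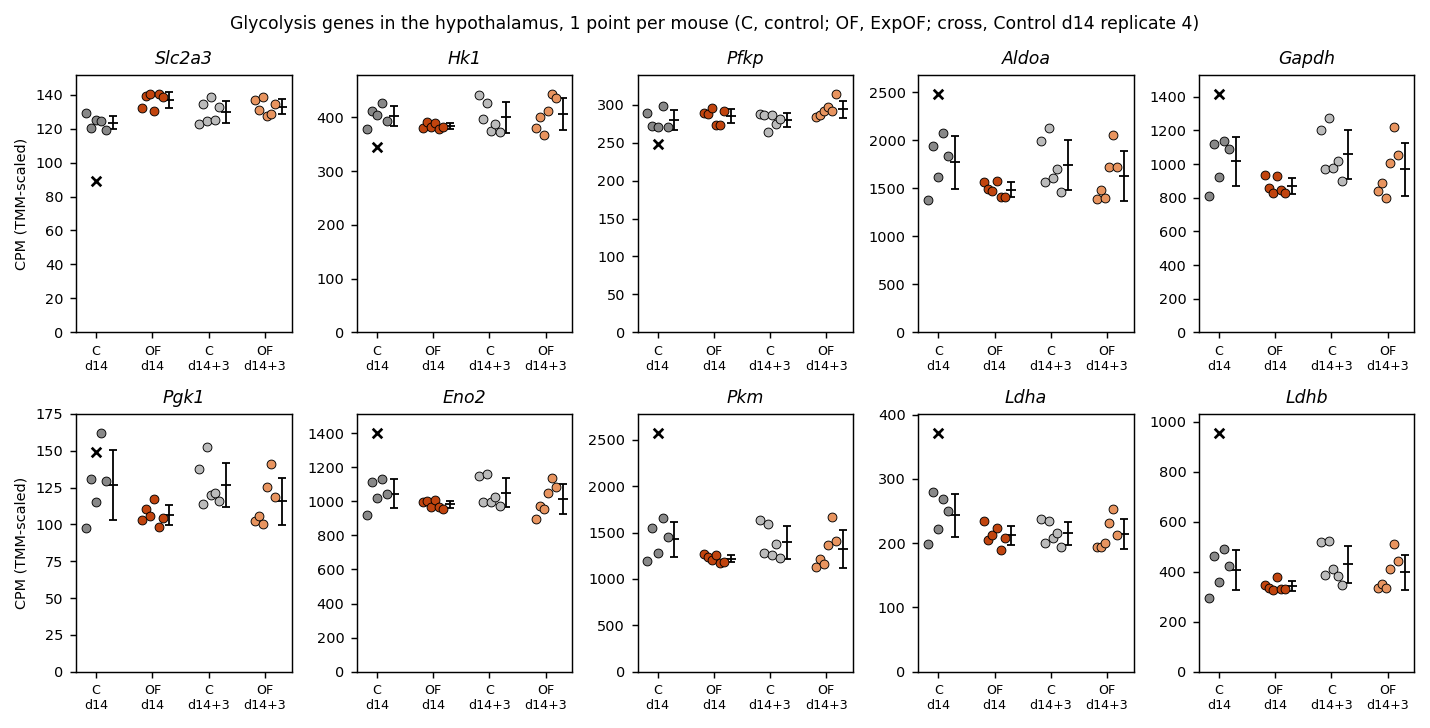
Level of each of the 10 genes in CPM (vertical axis from 0, TMM-scaled) by group, with 1 point per mouse, the mean ± SD beside each group, and a cross for Control d14 replicate 4, which is not in the means. On d14 the Slc2a3 points of ExpOF mice (130.3 to 140.6) lie above the 5 control points, whereas for Aldoa they lie between 1404.4 and 1580.7 among controls spread from 1377.7 to 2073.4.

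The calls on d14 changed most when a single control library was left out. Control d14 replicate 1 was below every ExpOF d14 library for 6 of the 10 genes, although for Slc2a3 this placed it with the other controls. The share of all genes for which this held was not computed, so the count cannot be read as particular to these genes. Without Control d14 replicate 1, 7 of the 10 genes passed an adjusted p-value of 0.05 (Slc2a3 higher, Aldoa, Gapdh, Pgk1, Pkm, Ldha and Ldhb lower), but 22.0% of all genes did so as well, 9.93% in the lower direction. The groups of Slc2a3, Hk1, Aldoa, Eno2 and Pkm did not overlap without it, as for 9.19% of genes in the higher and 7.29% in the lower direction. This library had a RIN of 8.6 and the highest pituitary marker level, and the part of either in the result was not tested. With all 24 libraries the median over the 10 genes was -0.29, and 0 of 10 passed the adjusted threshold (0.00533% of all genes).

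**Figure D2:**
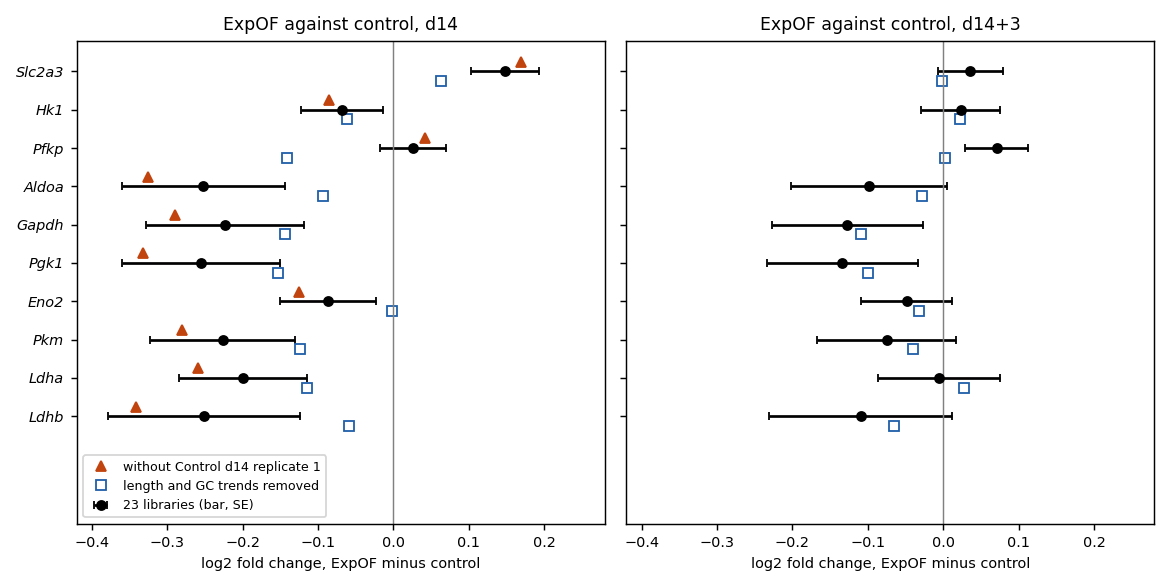
Log2 fold change of ExpOF against control mice (horizontal axis) for each gene on d14 (left) and d14+3 (right), with black points and SE bars from 23 libraries, triangles for the fit without Control d14 replicate 1 and open squares for the fit with length and GC trends removed. On d14 the black points run from -0.26 for Pgk1 to 0.15 for Slc2a3, and on d14+3 from -0.13 to 0.07.

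On d14+3, the comparison asked whether a difference was present in the recovery phase. The median log2 fold change over the 10 genes was -0.06 (all genes, 0.01), with 7 of 10 lower where 47.9% of all genes were. None passed at an adjusted p-value of 0.05 (0% of all genes), and none at an unadjusted p-value under 0.05, where 7.11% of all genes did. Adjusted p-values ran from 0.756 (Pfkp) to 0.990 (Ldha) in edgeR. Pfkp, from 283.2 to 314.6 CPM in ExpOF and from 263.6 to 288.3 CPM in control mice, had a log2 fold change of 0.07 (SE 0.042), and its exact permutation p-value was 0.0195. Pgk1 had the lowest fold change, -0.13 (SE 0.100), with 100.2 to 141.2 CPM in ExpOF and 114.0 to 152.3 CPM in control mice. The July median was -0.12 and the September median -0.01.

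Between the days, ExpOF mice had 1 of 10 genes lower on d14+3 than on d14 (48.7% of all genes), with a median of 0.10 and no gene at an unadjusted p-value under 0.05 (7.79% of all genes) or an adjusted one (0%). Ldhb had the highest of these fold changes, 0.22 (SE 0.122, adjusted p = 0.720), from 325.2 to 378.9 CPM on d14 and from 335.8 to 511.3 CPM on d14+3. In control mice the median was -0.0021, none passed the adjusted threshold (1.15% of all genes), and Ldha alone had an unadjusted p-value under 0.05 (12.7% of all genes). Ldha had a log2 fold change of -0.18 (SE 0.085, adjusted p = 0.375) between the control groups. The interaction of overfeeding and day gave adjusted p-values from 0.903 to 0.939 for the 10 genes, with 0 of 10 (4.42% of all genes) at an unadjusted p-value under 0.05 and 0% of all genes at an adjusted one. A difference between the days in the response to overfeeding was therefore not detectable for these genes at this number of mice.

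The genes did not vary to the same extent. Over the 4 groups, the pooled SD of log2 CPM was between 0.054 and 0.082 for Slc2a3, Hk1 and Pfkp. It was between 0.105 and 0.233 for the other 7 genes. The first 3 are also the longest of the 10, so spread by length and by place in the pathway cannot be told apart here. ExpOF d14 had the smallest SD for 9 of the 10 genes, with a median of 0.061 against 0.199 in Control d14, and it had the smallest SD for 52.4% of all genes tested. The libraries with the highest mean over the 10 genes were Control d14 replicate 5, ExpOF d14+3 replicate 5, Control d14+3 replicates 3 and 1, and Control d14 replicate 2, so that they came from 3 groups. The mean, as log2 CPM less the gene's own mean, ran from 0.224 in Control d14 replicate 5 to -0.167 in Control d14 replicate 1. Control d14 replicate 5 also had a RIN of 8.0 and the highest choroid plexus marker sum, and without it the d14 median over the 10 genes was -0.16. The part of either in the result was not tested. The highest thalamic marker sums were in Control d14+3 replicates 3 (913.2 CPM) and 1 (874.5 CPM) and ExpOF d14+3 replicates 5 (805.6 CPM) and 6 (789.8 CPM). Control d14 replicates 5 and 2 were not among these, and the part of thalamic tissue was not tested.

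**Figure D3:**
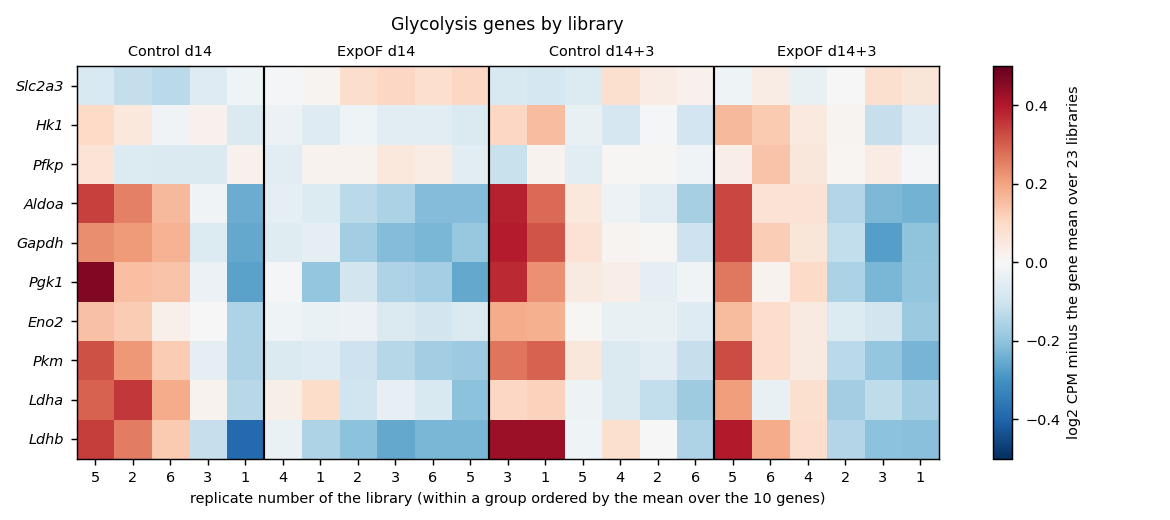
Log2 CPM of each gene (rows) in each of 23 libraries (columns, by group and replicate number) less the gene's mean, from blue (lower) to red (higher). Aldoa, Gapdh, Pgk1, Pkm and Ldhb are red or blue together in the same libraries, and Slc2a3, Hk1 and Pfkp stay near 0.

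Over the 23 libraries, Aldoa, Gapdh, Pgk1, Eno2, Pkm and Ldhb had a Pearson r of at least 0.95 with the mean of the 10 genes, of which each is itself a part, and Hk1 had 0.871 and Ldha 0.840. Pfkp, at -0.015, and Slc2a3, at -0.677, did not follow it. Among the 8555 genes with at least 20 CPM, the non-members most like this mean were Syp (0.978), which encodes the synaptic vesicle protein synaptophysin, and Tpi1 (0.976), the triose-phosphate isomerase gene of the same pathway, with Napa, Ptpa, Apbb1, Dhrs1 and Actr1b also among the highest. The lowest were Dcx (-0.973), Dpy19l4 and Nfat5. An r of at least 0.9 was found for 477 genes (5.58%), and these values are descriptions over libraries that differ in depth, RIN and marker content, whose part in them was not tested.

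Fold change moved with gene length across all genes on d14. With the genes tested split by length into 5 classes of like size, the median was -0.20 in the shortest class (up to 1869 bases) and 0.13 in the longest (from 6869 bases). Ldhb lay in the shortest class, Aldoa and Pgk1 in the next, Gapdh and Ldha in the middle one, Eno2 and Pkm in the one above it, and Slc2a3, Hk1 and Pfkp in the longest. With the length trend removed the median over the 10 genes was -0.17, and 3 of 10 had an unadjusted p-value under 0.05 (19.6% of all genes). With length and GC trends removed it was -0.10, and 2 of 10 did (18.7%). The part of length in the difference on d14 was not tested beyond these fits.

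**Figure D4:**
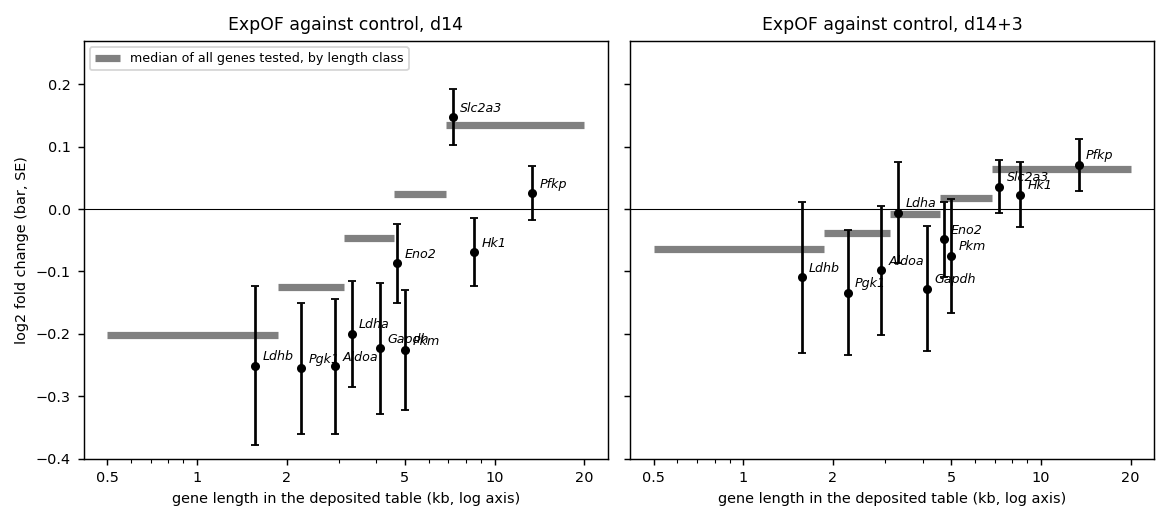
Log2 fold change of ExpOF against control mice (vertical axis, SE bars) against gene length in kilobases (log axis) for the 10 genes on d14 (left) and d14+3 (right), with grey lines for the median of all genes tested in each of the 5 length classes, drawn between 0.5 and 20 kb. On d14 the grey lines rise from -0.20 to 0.13, and 9 of the 10 genes lie below the line of their class, with Slc2a3 just above it.

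The balance between genes was described by 3 ratios of CPM within a library, chosen after earlier results of these data were known. They were Ldha to Ldhb, Slc2a3 to Slc2a1, and Hk1 to Gapdh, which encode different enzymes and not isoforms. The family held 12 comparisons. The log2 ratio of Ldha to Ldhb was -0.73 ± 0.11 (SD, n = 5) in Control d14 and -0.69 ± 0.087 (SD, n = 6) in ExpOF d14. It was -0.98 ± 0.14 in Control d14+3 and -0.88 ± 0.12 in ExpOF d14+3 (SD, n = 6). It was lower on d14+3 by 0.19 in ExpOF mice (exact permutation test, p = 0.0108) and by 0.25 in control mice (exact permutation test, p = 0.0130), and the July and September cohorts each showed the same direction. After Benjamini-Hochberg adjustment over the 12 comparisons both p-values were 0.0520, so neither passed. With Control d14 replicate 4 included, whose log2 ratio was -1.36, the difference in control mice was -0.09 as a difference of fitted fold changes. Marker sums also differed between the days. The median hypothalamic sum was 762.6 CPM in Control d14 and 570.4 CPM in Control d14+3, and 655.0 and 500.8 CPM in the ExpOF groups. The median thalamic sum was 505.3 CPM in Control d14 and 660.5 CPM in Control d14+3, and 379.8 and 600.6 CPM in the ExpOF groups. The thalamic ranges overlapped between the days. Neuronal sums in control mice were higher on d14+3 without overlap, and the part of any of these in the ratio was not tested.

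The log2 ratio of Slc2a3 to Slc2a1, the glial and endothelial transporter gene, was 0.17 ± 0.15 (SD, n = 5) in Control d14 and 0.44 ± 0.087 (SD, n = 6) in ExpOF d14. The difference of 0.26 had an exact permutation p-value of 0.00866 and an adjusted p-value of 0.0520 over the same 12 comparisons, which also missed the threshold. Slc2a1 ranged from 97.1 to 128.0 CPM in control and from 97.8 to 105.9 CPM in ExpOF mice on d14. Removing length and GC trends left a difference of 0.077. The ratio of Hk1 to Gapdh differed by 0.15 on d14 (exact permutation test, p = 0.0996, adjusted p = 0.239).

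**Figure D5:**
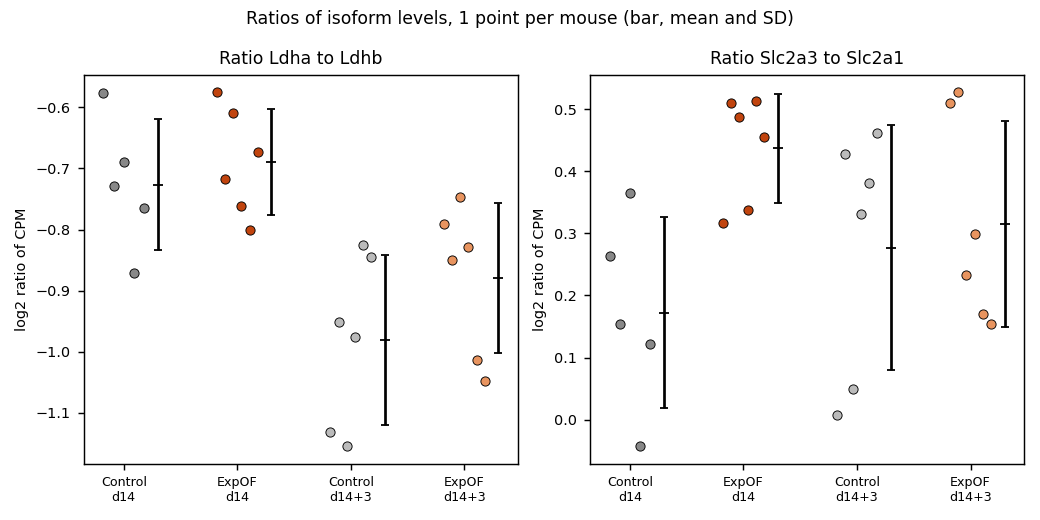
Log2 ratio of CPM (vertical axis) of Ldha to Ldhb (left) and of Slc2a3 to Slc2a1 (right) by group, with 1 point per mouse and the mean ± SD beside it. The means of Ldha to Ldhb are -0.73 and -0.69 on d14 and -0.98 and -0.88 on d14+3.

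The remaining genes of glucose metabolism were taken from hand-written lists of other glycolytic enzymes, glucose and monocarboxylate transporters, pyruvate entry, the pentose phosphate pathway, glycogen and NADH shuttles. Of 82 listed genes 79 passed the filter, and none passed the adjusted threshold on either day. At an unadjusted p-value under 0.05, 5 of the 79 were higher on d14 (6.33%, against 13.1% of all genes) and 21 lower (26.6%, against 13.6%). On d14+3, 0 were higher (2.91% of all genes) and 3 lower (3.80%, against 4.20%). Of the other steps of glycolysis, Tpi1 had a log2 fold change of -0.24 on d14 (adjusted p = 0.160), Eno1, the ubiquitous enolase gene, -0.31 (adjusted p = 0.150), and Gpi1 -0.15 (adjusted p = 0.169). The phosphofructokinase genes Pfkl and Pfkm had -0.19 and -0.08 (adjusted p = 0.203 and 0.454), and Aldoc, the astrocyte-enriched aldolase gene, -0.14 (adjusted p = 0.244). Hk2, a low-level hexokinase gene in this tissue at 5.50 to 7.53 CPM in ExpOF d14, had -0.08 (adjusted p = 0.711).

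Bsg, which encodes the chaperone of lactate transporters, had -0.34 on d14 (adjusted p = 0.135), and Pgls, of the pentose phosphate pathway, -0.51 (adjusted p = 0.135). Slc16a7, the neuronal monocarboxylate transporter gene, had 0.47 (adjusted p = 0.135) and Slc16a1 -0.09 (adjusted p = 0.378). Slc2a13, a myo-inositol transporter gene, had 0.34 (adjusted p = 0.138). Among the other lists, Mpc2, of the mitochondrial pyruvate carrier, had -0.30 (adjusted p = 0.177), the liver-type glycogen phosphorylase gene Pygl -0.27 (adjusted p = 0.135) and the glycerol-3-phosphate dehydrogenase gene Gpd1 -0.53 (adjusted p = 0.135). Pgam1, the phosphoglycerate mutase gene, had the smallest p-value on d14+3 of the genes in these lists, with 43.99 to 57.61 CPM in ExpOF and 51.61 to 75.12 CPM in control mice. Its log2 fold change of -0.34 had an adjusted p-value of 0.256, and the groups overlapped.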

How the data were processed

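Poly-A selected, stranded libraries from 24 hypothalami were read from both ends. Reads had been mapped by the authors to mm10 with STAR and assigned to GENCODE vM22 genes by featureCounts 1.6.4, and the deposited values are raw counts. Strand and multi-mapping settings are not given in the sources used here. Symbols came from GENCODE vM21 (55144 of 55471 genes).

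The main fit used edgeR 4.0.16 in R 4.3.3 on 23 libraries, with TMM scaling, edgeR's own expression filter (minimum count of 10, minimum total of 15) and robust quasi-likelihood F-tests with 1 coefficient per group. P-values were adjusted across 18992 genes (threshold, 0.05). The prior count in log2 CPM was 2. For single values, permutation tests were exact and two-sided. The fits were also run on simulated data, with changes larger than those of the 10 genes and with noise independent between genes. That run does not bear on changes of the size reported here. P-values measure the spread between mice, since each mouse gave 1 library.

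The genes, lists and ratios were chosen with earlier results of these data known. Named are the 10 genes, isoforms of their steps, Slc16a1 and Slc16a7, the gene with the smallest p-value in each list, and the 8 most and 3 least similar genes, of which 1 is not reported here. Replicate numbers did not pair the mice. Alternatives were DESeq2 1.42.0, other filters and scaling, covariates, a replicate block, single cohorts, all 24 libraries and each library left out. Fits without length and GC trends (splines, 5 degrees of freedom) were added after the data were seen.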

Additional observations from a re-analysis of the deposited data

Results flagged for a closer look

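Control d14 replicate 4, the library not used in the comparisons, lay above all of the other 23 libraries for 6 of the 10 genes (share of all genes not computed). Its level was 2485.3 CPM for Aldoa, 1418.2 CPM for Gapdh, 1400.8 CPM for Eno2, 2573.4 CPM for Pkm, 371.6 CPM for Ldha and 955.7 CPM for Ldhb. The highest values in the other libraries were 2127.6, 1271.6, 1161.8, 1663.9, 279.9 and 523.7 CPM. The same library lay below all 23 for Slc2a3 (89.3 CPM), Hk1 (344.0 CPM) and Pfkp (248.6 CPM), and within them for Pgk1 (149.2 CPM). It held 10922271 counts, with 2486.2 CPM of hypothalamic and 4576.8 CPM of choroid plexus markers, and the part of these in its levels was not tested. Among the 40 combinations of gene and group tested with Dixon's critical value, 0 held a sample that stood apart, where chance gives about 1 in 20.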

How the results depend on the processing

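Of 1725 alternative values, 1652 kept their direction, side of the threshold and, for counts, size within 1.5 times. These values are not independent. They include fits that left out a library outside the groups compared, which can change little, so the count does not measure robustness. On d14, 1 gene was called in the main fit, against 196 with DESeq2 (1 of the 10 genes), 2 with only the compared groups, 0 in each of the July and September cohorts and 6 with length and GC trends removed. On d14+3, 0 genes became 42 with DESeq2 and 26 with RIN as a covariate. Between the days in ExpOF mice, 0 became 190 with DESeq2, 28 with at least 10 counts in every library, 123 with only the compared groups, 78 with cohort and extraction round as covariates and 2 with length and GC trends removed. Between the days in control mice, 218 became 531 with DESeq2, 0 with only the compared groups or 1 cohort, 33 with the replicate block and 375 with length and GC trends removed. The causes were not tested.

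The direction of small fold changes turned in several fits. Slc2a3 on d14+3 was -0.015 in the September cohort, -0.00080 with the length trend and -0.0022 with length and GC trends removed. Hk1 on d14+3 was -0.0090 with RIN as a covariate and -0.025 with the length trend removed. Pfkp on d14 was -0.038 in the September cohort, -0.18 with the length trend and -0.14 with length and GC trends removed, and on d14+3 -0.0092 with the length trend removed. Ldha on d14+3 was 0.062 in the September cohort, 0.023 with the length trend and 0.028 with length and GC trends removed. The log2 ratio difference of Ldha to Ldhb on d14 was -0.047 with the length trend and -0.055 with length and GC trends removed, that of Slc2a3 to Slc2a1 on d14+3 was -0.023 and -0.041, and that of Hk1 to Gapdh was 0.013 between days in ExpOF mice of the July cohort and 0.060 between days in control mice with all 24 libraries.

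With each library left out in turn, the genes called ranged from 1 to 4220 on d14 (4220 without Control d14 replicate 1, with 7 of the 10 genes, otherwise 0), from 0 to 157 between days in ExpOF mice (157 without ExpOF d14+3 replicate 3) and from 24 to 313 between days in control mice (24 without Control d14 replicate 2). On d14+3, the fold change of Hk1 ranged from -0.0024 to 0.057, that of Ldha from -0.057 to 0.028 and the ratio difference of Slc2a3 to Slc2a1 from -0.018 to 0.074. The replicate numbers did not pair the mice, and with the replicate block 4 of the 10 genes had an unadjusted p-value under 0.05 on d14 (20.9% of all genes).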
